A study of Mus musculus with 59 samples.

Results

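The genes described here are 42 listed genes of mouse chromosome 14 that lie between Oxnad1 and Tmtc4, a stretch in which RNA of most measured genes was low in 1 induced pluripotent stem cell (iPSC) clone, iPSC-46. They were chosen by that pattern, the log2 values of iPSC-46 relative to the other clones of its origin group in these same arrays, so their low values in iPSC-46 are a description without a test. Of the 42, 35 were measured by a probe set that names 1 gene. Tpt1 and Dock9 were covered only by probe sets naming several genes, no probe set was named for Abcc4, Farp1, Stk24, Tep1 or Esco2, and these 7 have no values here. The 35 are set against 321 genes measured from Oxnad1 to Tmtc4 and 11788 genes measured in all.

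RNA of 59 mouse lines was read on Affymetrix arrays, with 1 array per line, and each line was 1 clone. iPSC-46 is 1 of 6 clones, numbered 44 to 49, made from cells labelled TTFs of an animal called chimera 2. The other lines were 4 clones of targeted KH2 embryonic stem cells (ESC), 42 further iPSC clones, 1 Adeno-iPSC clone from fetal liver and 6 ESC lines derived by nuclear transfer (NT-ESC) from iPSC. The 42 came from MEFs of chimera 1 (6), and from HSCs (11), GMPs (11) and granulocytes (9) of mouse 1, mouse 2 and chimera 2 and cells labelled PFs (5) of mouse 1 and mouse 2. Per the series description, the iPSC came from chimeric mice made with ESC that carried an inducible cassette of myc, Klf4, Oct4 and Sox2. All lines grew with LIF and 15% serum on irradiated feeder cells, which a preplating step of 45 minutes was meant to remove.

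The listed genes share a stretch of chromosome and not a pathway. Their products include the tumour suppressor Rb1, which restrains E2F factors and so entry into S phase, subunits of the transcription machinery (Gtf2f2, Med4), enzymes of DNA repair (Parp2, Apex1), the methyltransferase Prmt5, a catalytic proteasome subunit (Psmb5) and mitochondrial enzymes (Sucla2, Pcca, Clybl). Many work in complexes whose other subunits are encoded on other chromosomes. The arrays measured RNA, and DNA copies of the chromosome were not measured.

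Promoter sequences of 4 genes, low or not low in iPSC-46 by their brightest probe set, are printed. They are 300 bases from RefSeq (assembly GRCm38.p6), from upstream of the transcription start into its first bases, 5′ to 3′ on the gene's strand. Capitals mark the GC box GGGCGG or its reverse complement CCGCCC. Prmt5 (minus strand, chr14:54517421-54517720) and Apex1 (plus strand, chr14:50924699-50924998) had the lowest readings in iPSC-46 relative to its sister clones. Itm2b (minus strand, chr14:73385240-73385539) was among those that were not low. Hnrnpc (minus strand, chr14:52103972-52104271) was not low with its brighter probe set (-0.06) but read -0.55 with its dimmer one.
Prmt5: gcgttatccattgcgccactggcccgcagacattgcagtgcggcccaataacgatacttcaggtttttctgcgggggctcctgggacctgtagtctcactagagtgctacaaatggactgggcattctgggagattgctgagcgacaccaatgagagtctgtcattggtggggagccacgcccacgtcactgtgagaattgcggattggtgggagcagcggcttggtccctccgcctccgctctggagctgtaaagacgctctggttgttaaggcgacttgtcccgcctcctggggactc
Apex1: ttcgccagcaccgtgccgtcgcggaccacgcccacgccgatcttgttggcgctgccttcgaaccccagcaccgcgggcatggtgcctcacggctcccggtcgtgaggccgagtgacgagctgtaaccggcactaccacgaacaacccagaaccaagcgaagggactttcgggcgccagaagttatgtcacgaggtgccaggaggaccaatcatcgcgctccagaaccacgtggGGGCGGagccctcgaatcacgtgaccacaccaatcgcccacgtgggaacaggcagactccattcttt
Hnrnpc: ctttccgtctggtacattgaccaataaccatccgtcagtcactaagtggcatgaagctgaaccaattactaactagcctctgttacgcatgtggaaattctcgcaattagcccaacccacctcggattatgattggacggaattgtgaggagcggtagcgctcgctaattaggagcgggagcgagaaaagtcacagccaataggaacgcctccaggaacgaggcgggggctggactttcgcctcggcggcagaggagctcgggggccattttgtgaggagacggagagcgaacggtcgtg
Itm2b: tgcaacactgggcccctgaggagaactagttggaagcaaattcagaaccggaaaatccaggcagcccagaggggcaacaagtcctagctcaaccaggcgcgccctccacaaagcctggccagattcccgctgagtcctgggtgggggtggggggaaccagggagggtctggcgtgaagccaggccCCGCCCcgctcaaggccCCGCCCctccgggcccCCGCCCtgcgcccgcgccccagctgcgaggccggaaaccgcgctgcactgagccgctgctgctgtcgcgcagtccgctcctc
Promoter sequences matched 27 of the 35 measured genes, with 35 entries. The GC box, on either strand, was in 54.3% of these entries and in 35.7% of all 32851 mouse promoters of this length. CCAAT or its complement ATTGG was in 51.4% against 37.4%, TATAAA or TTTATA in 5.71% against 13.6%, and the E box CACGTG in 5.71% against 7.15%. The sets also differed in base composition, with a median of 21 CG dinucleotides in these entries and 7 in all promoters. Its part in the motif shares was not tested. Of the genes printed, Prmt5 and Hnrnpc had no GC box, Apex1 had 1 and Itm2b had 3.

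Values are log2 intensities as deposited, centred near 0 on each array, and for each gene the brightest probe set, by mean over the 59 arrays, was used. The deviation of a line is its value minus the mean of the other clones of its origin group, so a deviation of iPSC-46 is set against TTF clones 44, 45, 47, 48 and 49. A level on this scale compares lines for 1 gene and does not rank genes. In iPSC-46 the median deviation was -0.65 over the 35 genes and 0.00 over all genes. In bulk RNA, fewer cells of a type and less RNA per cell cannot be told apart. A deviation of -0.2 or lower was found for 29 of the 35, and for 18.4% of all genes, and 1 of the 35 (Lmo7) was at or above 0.2, as were 21.8% of all genes. The remaining 5 lay between these limits. iPSC-46 was the lowest of the 6 TTF clones for 31 of the 35 genes, against 25.4% of all genes. Since the genes were listed for this clone, these counts restate how they were chosen.

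**Figure D1:**
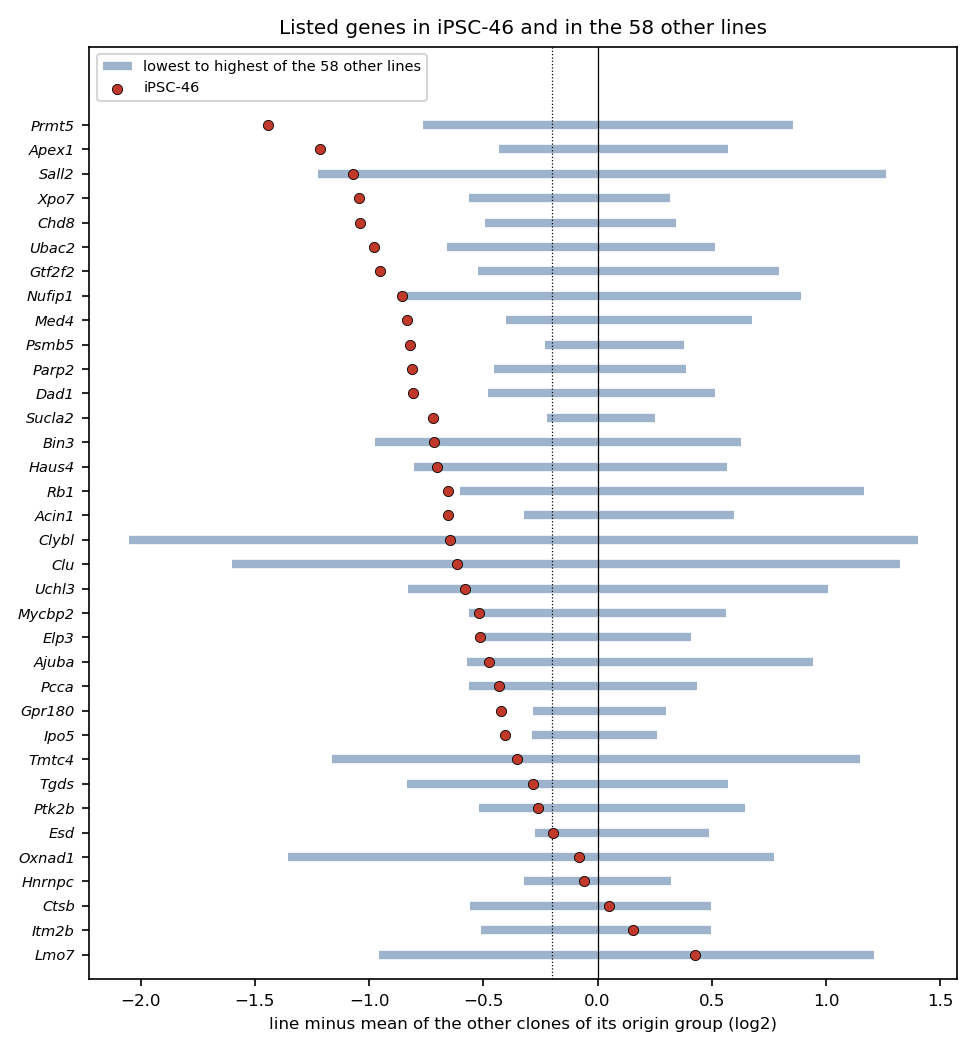
Deviation of each of the 35 measured genes (log2) in iPSC-46, as red points, and the span from the lowest to the highest of the 58 other lines, as bars, with iPSC-46 in the reference of its sister clones; the dotted line is at -0.2. iPSC-46 ran from -1.44 (Prmt5) to 0.43 (Lmo7), and 15 of its points lay left of the whole bar.

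Among genes of transcription, chromatin and RNA processing, 9 of 10 were at or below -0.2, with a median of -0.85. Prmt5, which makes symmetric dimethylarginine on histones and splicing proteins, had the lowest deviation of the 35. Its log2 values were 3.71, 3.68, 3.80, 3.80 and 3.78 in clones 44, 45, 47, 48 and 49 and 2.31 in iPSC-46. The 5 sister clones lay within a narrow band and iPSC-46 well under it. Its deviation was -1.44, or 36.7% of their mean level on the linear scale.

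Chd8, a chromodomain helicase that remodels chromatin, read 3.59, 3.77, 3.71, 3.66 and 3.56 in the sister clones and 2.62 in iPSC-46, a deviation of -1.04. Gtf2f2, the small subunit of the general factor TFIIF, read 3.66, 3.68, 3.70, 3.72 and 3.63 against 2.73, a deviation of -0.95. For both genes the 5 sister clones were close to each other and did not overlap iPSC-46. Nufip1, an RNA-binding protein that helps to assemble small nucleolar RNPs, had a deviation of -0.86, and Med4, of the Mediator complex that links activators to RNA polymerase II, one of -0.83.

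Rb1 read 1.04, 0.71, 0.97, 1.04 and 1.11 in the sister clones and 0.32 in iPSC-46. The sister clones were more spread for Rb1 than for Gtf2f2, but all were above iPSC-46, and the deviation was -0.66, or 63.5% of their mean. The zinc finger factor Sall2 deviated by -1.07, from 0.19 ± 0.20 (SD, n = 5) in the sister clones to -0.88. Acin1, a component of splicing-linked complexes, deviated by -0.65, and Elp3, the catalytic subunit of Elongator, which modifies tRNA, by -0.52. The other 2 probe sets of Elp3 gave -0.59 and -0.76.

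Both genes of DNA repair were low. Apex1, the main endonuclease at abasic sites in base excision repair, read 4.14, 4.05, 4.25, 4.15 and 4.22 in the sister clones and 2.95 in iPSC-46, a deviation of -1.21 or 43.1% of their mean. Parp2, which makes poly(ADP-ribose) at DNA breaks, read 3.03, 3.26, 3.13, 3.16 and 3.30 against 2.36, a deviation of -0.81. Neither gene's sister clones reached down to iPSC-46.

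The nuclear transport receptors were also low in iPSC-46. Xpo7, an exportin, read 2.79, 2.72, 2.69, 2.62 and 2.67 in the sister clones and 1.65 in iPSC-46, a deviation of -1.05. Ipo5, an importin, deviated by less, -0.41, from 4.97 ± 0.05 (SD, n = 5) to 4.57, and its other 2 probe sets gave -0.59 and -0.86. The size therefore differed between probe sets of Ipo5 while the direction did not.

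Of 8 genes of protein processing and turnover, 6 were at or below -0.2. Psmb5, the proteasome subunit with chymotrypsin-like activity, read 4.67, 4.67, 4.69, 4.71 and 4.62 in the sister clones and 3.85 in iPSC-46, a deviation of -0.82. Dad1, a subunit of the oligosaccharyltransferase that starts N-glycosylation, read 2.85, 2.70, 2.85, 2.81 and 2.69 against 1.97, a deviation of -0.81. Ubac2, an endoplasmic reticulum protein of the degradation pathway, read 2.41, 2.31, 2.51, 2.37 and 2.25 against 1.39, a deviation of -0.98. In all 3 the sister clones stood clear of iPSC-46. Uchl3, a deubiquitinase, deviated by -0.58, the ubiquitin ligase Mycbp2 by -0.52 and the secreted chaperone Clu by -0.62. The sister clones varied most for Clu (2.49 ± 0.29, SD, n = 5).

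Among genes of mitochondrial metabolism, Sucla2, a subunit of the succinyl-CoA ligase of the citric acid cycle, read 3.41, 3.56, 3.54, 3.52 and 3.53 in the sister clones and 2.79 in iPSC-46, a deviation of -0.72. Clybl, a citramalyl-CoA lyase, deviated by -0.65 and Pcca, the biotin-carrying subunit of propionyl-CoA carboxylase, by -0.43. All 3 were lowest in iPSC-46 among the TTF clones. Tgds, a sugar nucleotide dehydratase, deviated by -0.28 and Tmtc4, an O-mannosyltransferase of the endoplasmic reticulum and the last gene of the list along the chromosome, by -0.35.

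Of 6 genes of signalling and the cytoskeleton, 5 were at or below -0.2. Haus4, of the augmin complex that nucleates spindle microtubules, read 1.53, 1.77, 1.65, 1.71 and 1.68 in the sister clones and 0.96 in iPSC-46, a deviation of -0.70. Bin3, a BAR-domain protein, deviated by -0.72, the LIM-domain protein Ajuba by -0.48, the membrane protein Gpr180 by -0.42 and the tyrosine kinase Ptk2b by -0.26. Ptk2b was the member nearest the limit among those past it.

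The 6 measured genes that did not pass -0.2 were Esd, Oxnad1, Hnrnpc, Ctsb, Itm2b and Lmo7. Esd, an esterase, was just outside the limit at -0.196, with 4.41, 4.48, 4.23, 4.38 and 4.28 in the sister clones and 4.16 in iPSC-46, which was still the lowest of the 6. Ctsb, a lysosomal protease, read 3.25, 3.37, 3.13, 3.15 and 3.10 against 3.25, and Itm2b, a membrane protein cleaved by furin, 3.14, 3.31, 3.09, 3.08 and 3.04 against 3.29. For both, iPSC-46 lay inside the range of its sister clones. All 4 probe sets of Ctsb lay between -0.04 and 0.09 and all 3 of Itm2b between -0.02 and 0.15.

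Lmo7, a LIM-domain protein of cell junctions, was the exception in direction. It read -0.54, -0.61, -0.79, -0.66 and -1.03 in the sister clones and -0.30 in iPSC-46, a deviation of 0.43, although its neighbour Uchl3 deviated by -0.58. Hnrnpc, a nuclear RNA-binding protein, read 4.89, 4.63, 4.71, 4.88 and 4.83 against 4.73 with its brighter probe set, a deviation of -0.06, but -0.55 with its dimmer one. The 2 probe sets of Hnrnpc therefore disagreed on whether it was low.

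Oxnad1, an oxidoreductase-domain protein and the first gene of the list along the chromosome, deviated by -0.08. The 7 genes measured from Oxnad1 to Lrrc18 lay between -0.08 and 0.08. The next gene, the kinase Mapk8 (chr14:33377898-33447353), was the first low one, at -1.17, with 0.84 in iPSC-46 and a mean of 2.01 in its sister clones. Oxnad1 (chr14:32085728-32103203) thus lay outside the low stretch. Before it, the 53 genes with a mean above 0 over all arrays had a median deviation of 0.04.

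From Mapk8 to Tmtc4 (chr14:122918971-122983285), 156 genes had a mean above 0, and their median was -0.69, with 144 at or below -0.2. These include the listed genes. The 127 such genes from Oxnad1 on that are not listed had a median of -0.71, and 116 of them were at or below -0.2, values close to those of the listed genes. The 158 genes with a mean at or below 0, many near the lower end of the scale, had a median of -0.12. Across the 314 genes from Mapk8 on, the level and the deviation had a Pearson correlation of -0.51, given as a description, as all genes share the arrays.

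The median was alike along most of the stretch and less low towards its end. Among genes with a mean above 0 it was -0.59 from 30 to 45 Mb (n = 8), -0.72 from 45 to 60 Mb (n = 74), -0.72 from 60 to 75 Mb (n = 43) and -0.74 from 75 to 90 Mb (n = 11). It was -0.58 from 90 to 105 Mb (n = 5) and -0.43 from 105 to 125 Mb (n = 15). Beyond Tmtc4 only Itgbl1 (0.31) and Fgf14 (-0.31) were measured, both with means under 0, so the far end of the low stretch could not be placed.

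**Figure D2:**
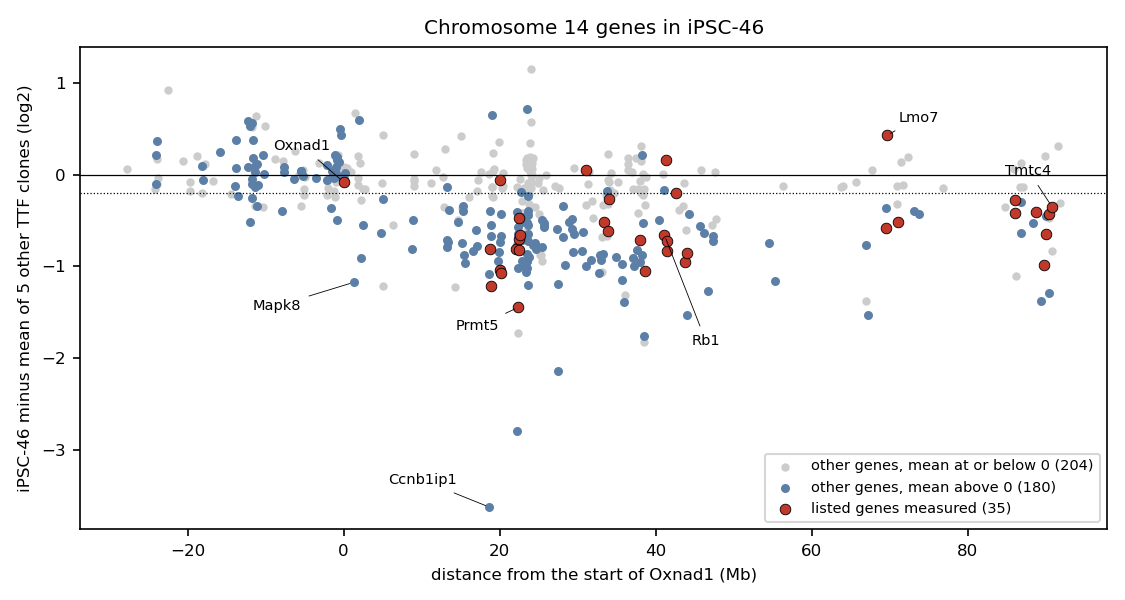
Deviation of chromosome 14 genes in iPSC-46 (log2) against distance from the start of Oxnad1 (Mb), with listed genes in red, other genes with a mean above 0 in blue and the rest in grey; the dotted line is at -0.2. Genes before Oxnad1 centre near 0, and from Mapk8 on most blue and red points lie under the dotted line.

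Some neighbours with a mean above 0 were lower than any listed gene. Ccnb1ip1, a ubiquitin ligase known for its part in meiotic crossing over, read -1.70 in iPSC-46 against 1.92 ± 0.12 (SD, n = 5), a deviation of -3.62, and the amino acid transporter subunit Slc7a7 deviated by -2.79. Shisa2 (-2.14), Dmtn (-1.75) and the transcription factor Klf5 (-1.53) were also low. In the other direction, 4 neighbours with a mean above 0 were at or above 0.2. They were Pck2, mitochondrial phosphoenolpyruvate carboxykinase (0.72), Rnase4 (0.65), Anxa8 (0.59) and Piwil2 (0.21).

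No other chromosome had a like shift in iPSC-46. For genes with a mean above 0 the median deviation on chromosome 14 was -0.53, and on the other 18 autosomes it ran from -0.03 to 0.15, the highest being chromosome 11. The share of genes at or below -0.2 was 70.9% on chromosome 14 and 12.0% to 22.0% on those autosomes. The chromosome 14 medians of the 5 sister clones, each set against the others without iPSC-46, ran from -0.04 to 0.02.

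**Figure D3:**
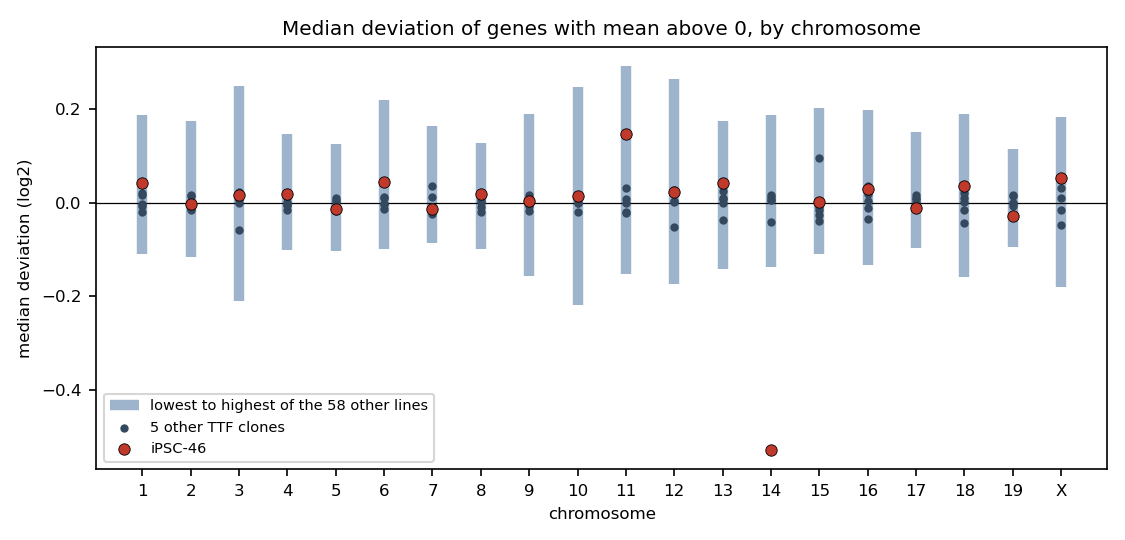
Median deviation (log2) of genes with a mean above 0, by chromosome, for iPSC-46 (red), its 5 sister clones without iPSC-46 in their reference (dark points) and, as bars, the lowest to the highest of the 58 other lines. iPSC-46 lies under the bar on chromosome 14, at -0.53, and within it on every other chromosome drawn.

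The other 58 lines did not show the pattern as a group of genes. With iPSC-46 left out of every reference, the median deviation of the 35 genes ran from -0.12 in NT-8 to 0.15 in NT-9. The number of genes at or below -0.2 ran from 0 to 12 per line, with a median of 3, and the highest counts, 12 each, were in NT-7 and NT-8. These NT-ESC were made from different iPSC clones (iPSC-7, and iPSC-15 for NT-8 and NT-9) and were set against each other. In iPSC-46 the number was 29.

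**Figure D4:**
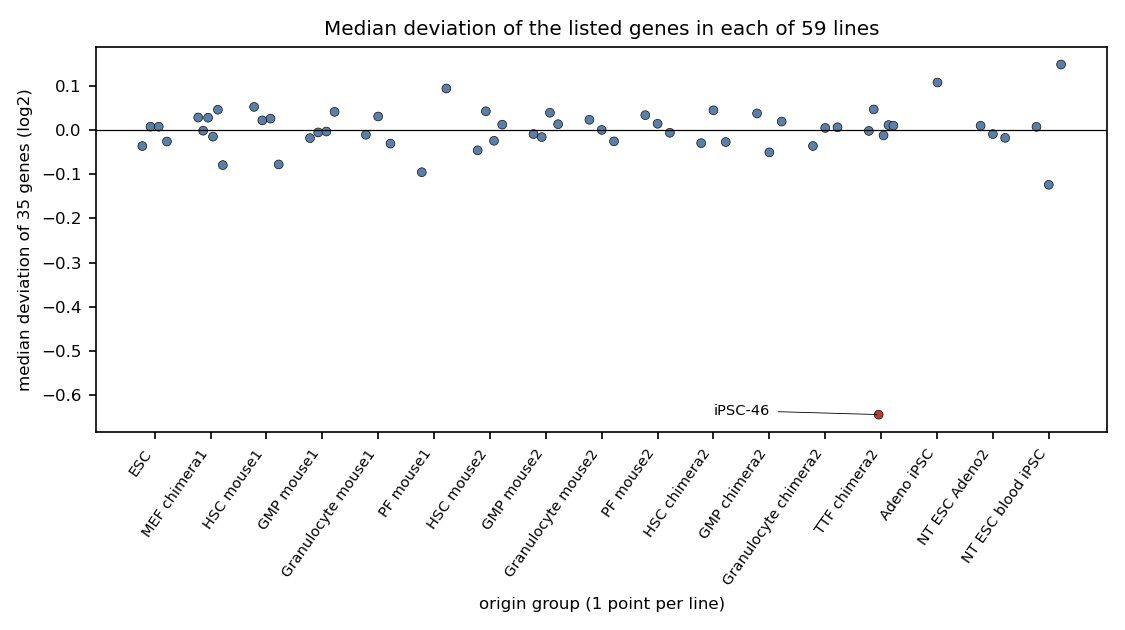
Median deviation (log2) of the 35 genes in each of the 59 lines, by origin group, with 1 point per line and iPSC-46 left out of the other TTF clones' reference. The 58 other lines lie between -0.12 and 0.15, and iPSC-46 at -0.65.

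Gene by gene, the clearance from other lines was uneven. For 15 of the 35 genes the deviation in iPSC-46 was below that of each of the 58 other lines, as it was for 2.75% of all genes. With iPSC-46 left out of the reference of its sister clones, the numbers were 15 and 2.71%. With those 3 NT-ESC left out instead, they were 20 and 5.15%. Sucla2 and Psmb5 varied little elsewhere: other lines went no lower than -0.22 for Sucla2 and -0.23 for Psmb5. For Clybl and Clu the low value in iPSC-46 was inside a wide range, since Clybl reached -2.05 in NT-7 and Clu -1.60 in iPSC-32. Sall2 reached -1.23 in iPSC-32 and Nufip1 -0.87 in NT-7. As plain levels, 8 of the 35 genes had their lowest value of all 59 lines in iPSC-46. That number was not counted over all genes, so it has no background here. The genes were listed for low values in this clone.

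Outside iPSC-46, the correlations between listed genes were near those of other genes. The median correlation over pairs of the 35 genes was 0.17 across all 59 lines, 0.05 without iPSC-46 and 0.01 across the 53 lines that are not TTF clones. For genes with a mean above 0 outside chromosome 14 it was 0.04 in each of these sets of lines. The 5 genes whose deviations were most correlated with the median of the listed genes over 59 lines were Ccnb1ip1 (0.79), Ngdn, Rpgrip1, Ttc5 and Mapk8, all on chromosome 14. Without iPSC-46 they were Tor1aip1 (0.66), Med22, Xpo4, Prr3 and Nop9, of which Xpo4 and Nop9 are on chromosome 14. In this setting, as for the 0.05 above, iPSC-46 was left out as a line but stayed in the reference of its sister clones. All of these genes were themselves low in iPSC-46, from -0.79 (Xpo4) to -0.44 (Med22), so this list is not free of that clone. These correlations are a description, as the lines within a group share their origin and reference.

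The partners of the listed proteins in complexes and enzymes were not low as a group. Of 49 partner genes 42 were measured, and the 41 on other chromosomes had a median deviation of 0.07 in iPSC-46, with 1 at or below -0.2 and 8 at or above 0.2. Over all genes, 18.4% were at or below -0.2 and 21.8% at or above 0.2. For Prmt5 (-1.44), its cofactor Wdr77 read 3.06 in iPSC-46 against 3.24 ± 0.10 (SD, n = 5), a deviation of -0.17, and its other partner Clns1a deviated by 0.12. For Psmb5 (-0.82), 6 other subunits of the proteasome's core lay between -0.10 (Psmb6) and 0.34 (Psmb3). For Dad1 (-0.81), 6 other genes of oligosaccharide transfer lay between 0.00 (Rpn2) and 0.13 (Ddost).

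The same held for the spindle and Mediator genes. For Haus4 (-0.70), Haus7 on chromosome X was the 1 low partner, at -0.29, and Haus8 the highest, at 0.24. For Med4 (-0.83), 8 other Mediator genes lay between -0.18 (Med17) and 0.26 (Med31). For Parp2 (-0.81), the repair genes Parp1 (0.02), Xrcc1 (0.30) and Lig3 (0.59) were not low. The 1 partner on chromosome 14, Sap18, which works with Acin1 and lies between Oxnad1 and Tmtc4, was low at -0.55.

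**Figure D5:**
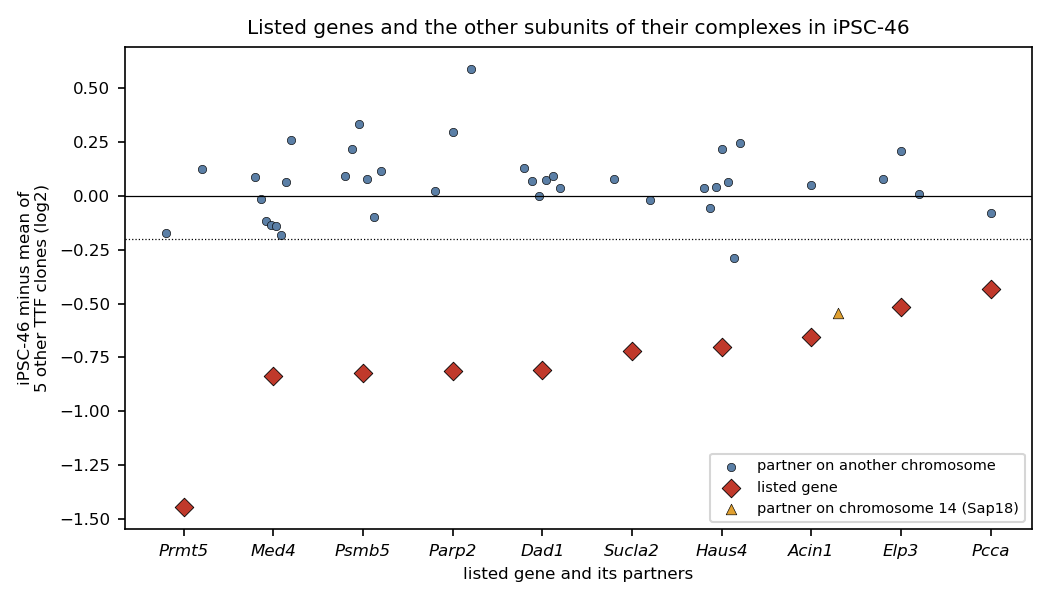
Deviation in iPSC-46 (log2) of listed genes (red diamonds), of their partners on other chromosomes (blue points) and of Sap18, a partner on chromosome 14 (triangle); the dotted line is at -0.2. Every red diamond drawn lies below the blue points of its own column.

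Genes of the network around Rb1 lay on both sides of 0. Of 32 genes of the RB and E2F network 30 were measured, with a median deviation of -0.06, 6 at or below -0.2 and 4 at or above 0.2. Over all genes, 18.4% were at or below -0.2, against 20% here, and 21.8% were at or above 0.2. These counts thus lay near or under the shares of all genes. The low ones were the RB relative Rbl1 (-0.50), E2f3 (-0.47), Ccne1 (-0.45), Mybl2 (-0.45), Cdk6 (-0.39) and Cdt1 (-0.29). Low signal limits the values of Cdk6 and E2f3, whose means over all arrays were -3.27 and -1.28. The high ones were Cdc6 (0.63), Ccnd2 (0.42), Ccne2 (0.23) and Rrm1 (0.21). E2F targets of DNA replication such as Pcna (-0.05), Mcm3 (0.09) and Rrm2 (0.01) lay near their level in the sister clones.

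iPSC-46 also differed from its sister clones in other ways. Its array had a mean correlation of 0.990 with the other TTF arrays, against 0.996 to 0.997 among those. All 8 measured fibroblast and feeder markers were above the mean of its sister clones, and 6 of 8 above each of them, with a median deviation of 0.58, and their mean level was 1.62 against 0.77 to 1.39 in the sister clones. The 9 measured pluripotency markers had a median of -0.04 and a mean level of 4.19 against 4.33 to 4.55. Pou5f1 was at -0.01, Sox2 at -0.03 and Nanog at 0.02. The 4 at or below -0.2 were Klf4 (-0.92), Utf1 (-0.47), Esrrb (-0.36) and Fgf4 (-0.23), and 0 were at or above 0.2. Over all genes these shares were 18.4% and 21.8%. The median deviation was 0.08 for 6 blood markers, from -0.27 (Elane) to 2.17 (Lyz2). It was -0.03 for 5 trophoblast markers, from -0.27 (Hand1) to 1.12 (Gata3), and -0.36 for 5 endoderm markers. The endoderm markers had means of -3.04 to -1.68 over all arrays, Gata3 one of -2.92 and Lyz2 one of -1.56, so low signal limits these values. Gata4, 1 of the endoderm markers (-0.33), itself lies between Mapk8 and Tmtc4 on chromosome 14.

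Of 5 Y-linked genes looked up after the values were seen, 3 were higher in iPSC-46 than in any other line. Uba1y read 0.51 in iPSC-46 and -4.10 to -1.63 in the 58 others, Uty -0.33 against -4.57 to -0.75, and Usp9y -1.30 against -3.06 to -2.04. Eif2s3y, at 3.78, was above its sister clones (-0.81 to 2.77) but below the highest line (4.27), and Kdm5d, at -2.60, lay among its sister clones. Outside chromosome 14, 237 of 11369 genes had a deviation in iPSC-46 below that of every other line. The part of these differences in the low chromosome 14 values was not tested.

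Whether the listed genes differ with cell of origin was tested without the TTF clones, whose values chose them, although earlier results of the clones tested were also known. In 36 iPSC clones, 31 from HSCs, GMPs or granulocytes and 5 from PFs, with cell type and animal as terms in limma, 13 of the 35 genes were higher and 8 lower in blood-derived clones at an adjusted p under 0.05. That is 60% of them, against 45.3% of all genes (26.1% higher and 19.1% lower). Among genes at or above the 40th percentile of mean level the shares were closer, 62.9% of the listed genes and 57.3% of all. The median difference was 0.01 over the listed genes and 0.01 over all genes. P-values measure the spread between clones, of which several came from each animal, and all PF clones came from mouse 1 and mouse 2.

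Rb1 was higher in blood-derived clones than in PF clones. It read 0.83, 1.12, 0.64, 0.67 and 0.65 in the PF clones and 1.07 to 1.68 (median 1.30) in the 31 blood-derived clones, of which 30 were above every PF clone. The difference was 0.48 ± 0.06 (SE, limma adjusted p = 3.66e-07). Haus4 read 1.21, 0.90, 1.04, 0.94 and 0.87 in PF clones and 1.16 to 2.09 (median 1.41) in blood-derived ones, again with 30 of 31 above all PF clones, and the difference was 0.36 (limma adjusted p = 1.11e-07). Uchl3 (0.26), Pcca (0.50), Mycbp2 (0.36) and Clybl (0.41) were higher too, with limma adjusted p from 3.07e-07 to 0.00132. The 6 MEF-derived clones of chimera 1 were not in this test. They read 2.01 ± 0.14 (SD) for Rb1, above the blood-derived clones, and 1.89 ± 0.12 (SD) for Haus4, inside the blood-derived range.

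Ctsb was lower in blood-derived clones. It read 3.27, 3.28, 3.65, 3.33 and 3.62 in PF clones and 2.96 to 3.37 (median 3.16) in blood-derived ones, 29 of which were below every PF clone. The difference was -0.32 ± 0.06 (SE, limma adjusted p = 3.22e-05). Acin1 differed by -0.32, with 27 of 31 blood-derived clones below every PF clone, and Ipo5 by -0.19, with 29 of 31. Clu differed by -0.62 (limma adjusted p = 0.000447), although its PF clones ran from 1.22 to 3.17 and overlapped the blood-derived range of 1.30 to 2.70.

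Some genes that were very low in iPSC-46 did not pass this test. Prmt5 differed by 0.01, Apex1 by -0.01 and Gtf2f2 by 0.03 (limma adjusted p = 0.878, 0.928 and 0.574). The fibroblast and feeder markers also differed with origin: their mean level was 1.22 to 2.15 in PF clones and -0.29 to 1.41 in blood-derived ones. The mean level of the pluripotency markers was 3.94 to 4.53 in PF clones and 4.42 to 4.74 in blood-derived ones. The PF clones of mouse 2 (4.14, 4.33 and 3.94) were below every blood-derived clone. The part of either marker set in these differences was not tested.

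ESC and iPSC were compared in 4 ESC and the 42 iPSC clones that are not TTF clones. Chd8 was the 1 listed gene past the threshold, against 3.8% of all genes (1.95% higher and 1.85% lower). It read 3.40, 3.16, 3.15 and 3.15 in ESC and 3.14 to 3.77 (median 3.52) in iPSC, and was 0.29 ± 0.08 higher in iPSC (SE, limma adjusted p = 0.0289). The 6 MEF-derived iPSC clones read 3.24 ± 0.08 (SD), near the ESC mean of 3.22. Group means of blood- and PF-derived clones ran from 3.38 to 3.67, so the difference did not hold for every origin. The call was lost without ESC-2 (limma adjusted p = 0.179), ESC-3 (0.20) or ESC-4 (0.0930), and with animal as a random block (0.671). All ESC shared the same block there, so that setting could not separate the block from the ESC group. Clybl, lower in iPSC by value (-0.64, limma adjusted p = 0.0585), did not pass.

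The effect of this 1 clone on a comparison that contains it was measured in 42 clones of mouse 1, mouse 2 and chimera 2, of which 31 were blood-derived and 11 from PFs or TTFs. As the genes were chosen for low values in iPSC-46, the direction of its effect was fixed by that choice, and the counts are a description. With iPSC-46, limma called 11 of the listed genes higher and 7 lower in blood-derived clones (28.1% and 21.6% of all genes, 49.8% together). Without it, 11 were higher and 13 lower (28.7% and 22.3% of all genes, 51% together). The 6 genes called only without it were Apex1, Chd8, Ipo5, Med4, Prmt5 and Ubac2, and no call was lost. Prmt5 moved from 0.00 to -0.10 (limma adjusted p = 0.985 and 0.0148) and Apex1 from -0.08 to -0.16 (0.379 and 0.00108). Over all genes the number called went from 5865 to 6014.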

How the data were processed

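RNA of 59 mouse lines had been hybridised to Affymetrix arrays. The deposited log2 intensities of 22626 probe sets were used as the authors gave them; the base of 2 (values -4.83 to 6.97) and the centring (array means within 0.003 of 0) were inferred from the values, while no source used here states the background correction, the summarisation or batches. Probe sets were named through the platform annotation and RefSeq (GRCm38.p6): 17977 gave 1 gene with a current symbol, 287 named several and 4336 none. Each of 11788 genes kept its probe set with the highest mean. The 7 listed genes without such a probe set were not analysed here.

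The listed genes, the partner, RB and marker lists and the tests were chosen with earlier results of these data known. Adeno-2 was set against the 3 NT-ESC made from it. Named genes were the listed ones, the 5 on each side of Oxnad1 and Tmtc4, the 10 lowest and highest others inside and outside the interval with a mean above 0, the listed partners and markers, Meg3 and Rian. Comparisons between groups used limma 3.58.1 in R 4.3.3 with Benjamini-Hochberg adjustment over all genes (0.05). On simulated data, changes of 0.5 log2 were recovered in 82.2% of cases for blood against PF origin and 74.8% for ESC against iPSC. Changes of 0.25 log2 were recovered in 22.8% and 13.8%. The simulated arrays were independent, while several real clones came from each animal, so these shares do not cover that dependence. The number of arrays and low signal both limit precision, and alternatives are in the closing section. Python 3.11.15 with pandas 2.3.3 made the tables.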

Additional observations from a re-analysis of the deposited data

Results flagged for a closer look

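For 20 of the 35 measured genes, the log2 value of iPSC-46 was the lowest of the 6 TTF clones and its gap to the next clone was above Dixon's 95% limit of 0.625 of the whole range. Chance flags about 1 in 20 groups, and the genes were listed for low values in this clone, so these marks are a description. They were Parp2 (2.36), Apex1 (2.95), Chd8 (2.62), Dad1 (1.97), Prmt5 (2.31), Haus4 (0.96), Psmb5 (3.85), Acin1 (1.41), Elp3 (1.81), Bin3 (-0.067). They were also Xpo7 (1.65), Med4 (1.97), Sucla2 (2.79), Gtf2f2 (2.73), Nufip1 (2.86), Uchl3 (3.56), Gpr180 (0.45), Ipo5 (4.57), Ubac2 (1.39) and Pcca (0.29).

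The mean log2 level of the 35 genes was examined in the 7 groups of 4 to 10 lines. In the TTF clones iPSC-46 was far below the others, with a mean of 1.95. Among the 4 GMP-derived clones of mouse 1, iPSC-14 was above the others, with a mean of 2.57; its median deviation over the same genes was 0.04.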

How the results depend on the processing

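The median deviation of -0.65 in iPSC-46 was -0.67 after quantile normalization, -0.68 against the median of the sister clones and -0.60 against the 47 other iPSC clones. It ran from -0.65 to -0.60 without each sister clone. In these settings the number of genes at or below -0.2 was 28 to 30. In the comparison of blood with PF origin, Prmt5 turned to -0.10 with the 5 other TTF clones added, and in the comparison that held iPSC-46 it turned to the same value without that clone. Without 1 PF clone each, 16 to 22 listed genes (45.7% to 62.9%) and 36.6% to 47.0% of all genes were called.

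For ESC against iPSC, 1 listed gene was called as reported, 2 without genes under the 40th percentile, 0 with animal as a random block (limma; 3 at an unadjusted p under 0.05) and 0 to 2 without each ESC clone. Of all genes, 448 were called as reported, 0 with the block (711 unadjusted) and 9 to 823 without each ESC clone. With the block, all ESC shared the same block, so block and ESC group could not be told apart. Hnrnpc was -0.31 as a mean of its probe sets. No paired analysis was possible because clone numbers shared by ESC and MEF-derived iPSC name lines only. Low signal limits the 158 dim genes of the interval.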

Other observations

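In iPSC-46, with a mean above 0 and outside chromosome 14, the lowest deviations were those of Spink1 (-1.80), En2 (-1.34), Ntn1 (-1.33) and Zfp423 (-1.29). The highest, other than Eif2s3y (3.26), were those of the X-linked homeobox gene Rhox5 (2.00), the caveolar gene Cavin2 (1.68), the autophagy receptor Calcoco2 (1.62) and Ifi202b (1.47). Another line was higher for each of these: Rhox5 (3.16) and Calcoco2 (2.42) in iPSC-32, Cavin2 (2.38) in Adeno-2 and Ifi202b (1.89) in ESC-1. Next were Cyct (1.42), Chac1 (1.40), Gstk1 (1.39), Smc1b (1.35) and Akr1e1 (1.34), of which Cyct and Smc1b are germline-expressed. The imprinted RNAs Meg3 and Rian both deviated by -0.52, within a spread of 1.19 and 1.08 (SD, n = 5) among the sister clones.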
